A study of Drosophila melanogaster with 2 samples.

Results

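The binding of Bowl, a DNA-binding zinc-finger protein related to Odd-skipped, is described here at 37 Drosophila melanogaster genes: the nuclear receptors, their coregulators, and response genes of ecdysone and juvenile hormone, called hormone genes below. A peak was counted at a hormone gene when the nearest transcription start site (TSS) of any protein-coding gene to its summit belonged to that gene. A TSS shared between genes went to the first gene by name, which gave the intron peaks of Hr3 to CG46321. By this rule the authors' pooled list, made from both replicates together, held 34 peaks at hormone genes out of 2198 peaks in all. These 34 peaks lay at 13 of the 37 genes, or 35.1%, while 12.8% of the 12806 protein-coding genes with any candidate region had a pooled peak. The hormone genes also held 1146 failing candidates, which are regions of the authors' ranked list that missed the limit on the irreproducible discovery rate (IDR).

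The data come from chromatin immunoprecipitation followed by sequencing (ChIP-seq) in 2 biological replicates of 1 group. Per the labels, flies of the bowl-GFP strain carried a transgene for a Bowl protein fused to eGFP, whole embryos spanning 0 to 24 h were used, and chromatin was precipitated with an antibody against GFP, although another label field names the antibody as bowl. Such embryos mix all stages and tissues, so a peak cannot be placed in a cell type or at a time. Control libraries were not analysed here, and read depth is unknown because the lists hold no read counts.

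Ecdysone acts through a heterodimer of 2 nuclear receptors, EcR and Ultraspiracle, which switches on early response genes such as Eip74EF, Eip75B and br, whose products control later genes. Hr3, Hr4, Eip75B and ftz-f1 form a cascade of receptors best known from the start of metamorphosis, and a pulse of the hormone also occurs in the embryo. Juvenile hormone acts through the bHLH-PAS proteins Met and gce, and the zinc-finger gene Kr-h1 is a direct response gene.

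The strongest peak of each of 6 hormone genes is shown first, because these regions carry the highest Bowl signal at the 5 genes with 3 or more peaks and at E23, which had the strongest peak of the 34. Each run is the plus strand from 50 bases before to 50 bases after the summit, read from the RefSeq Release 6 sequence, which is dm6, the assembly of the peak lists per the labels. Capitals mark the word ACAGTGG on either strand, the only word of the 5 searched that fell in these 6 windows.
ftz-f1, intron, chr3L:18769552-18769652: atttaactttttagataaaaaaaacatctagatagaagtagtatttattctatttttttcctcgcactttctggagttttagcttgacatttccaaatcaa
tai, intron, chr2L:9205184-9205284: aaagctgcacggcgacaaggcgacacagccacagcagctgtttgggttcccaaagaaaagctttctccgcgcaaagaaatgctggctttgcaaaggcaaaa
Hr4, intron, chrX:1947707-1947807: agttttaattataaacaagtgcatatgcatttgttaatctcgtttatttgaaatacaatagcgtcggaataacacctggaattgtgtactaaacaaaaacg
Eip75B, intron, chr3L:18019784-18019884: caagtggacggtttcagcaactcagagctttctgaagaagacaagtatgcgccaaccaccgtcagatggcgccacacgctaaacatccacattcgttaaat
Eip63E, intron, chr3L:3518056-3518156: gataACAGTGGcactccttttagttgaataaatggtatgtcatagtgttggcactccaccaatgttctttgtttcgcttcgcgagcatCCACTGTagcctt
E23, promoter, chr2L:3355026-3355126: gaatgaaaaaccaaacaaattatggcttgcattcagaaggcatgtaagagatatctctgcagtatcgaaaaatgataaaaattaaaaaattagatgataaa
The windows differed in base composition: GC made up 25.7% of the ftz-f1 window, 27.7% at E23 and 29.7% at Hr4, but 51.5% at tai. In the Eip63E window the word stood on both sides of the summit and faced inward, once on the plus strand and once on the minus strand.

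Peaks were counted for every hormone gene and grouped by role. The ecdysone receptor genes had 2 peaks, both at EcR and none at its partner usp. Of 16 other nuclear receptor genes 6 had assigned peaks, 19 in all, and the 3 knirps-group genes, which encode receptors without a hormone-binding domain, had none. Both coregulator genes, tai and Smr, had peaks, 7 in all. For comparison with these counts, 12.8% of all genes with a candidate had a peak. Of the rest, 1 of 5 genes for other response factors, 1 of 3 juvenile hormone genes and 2 of 6 remaining response genes had a peak, with 1, 1 and 4 peaks.

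**Figure D1:**
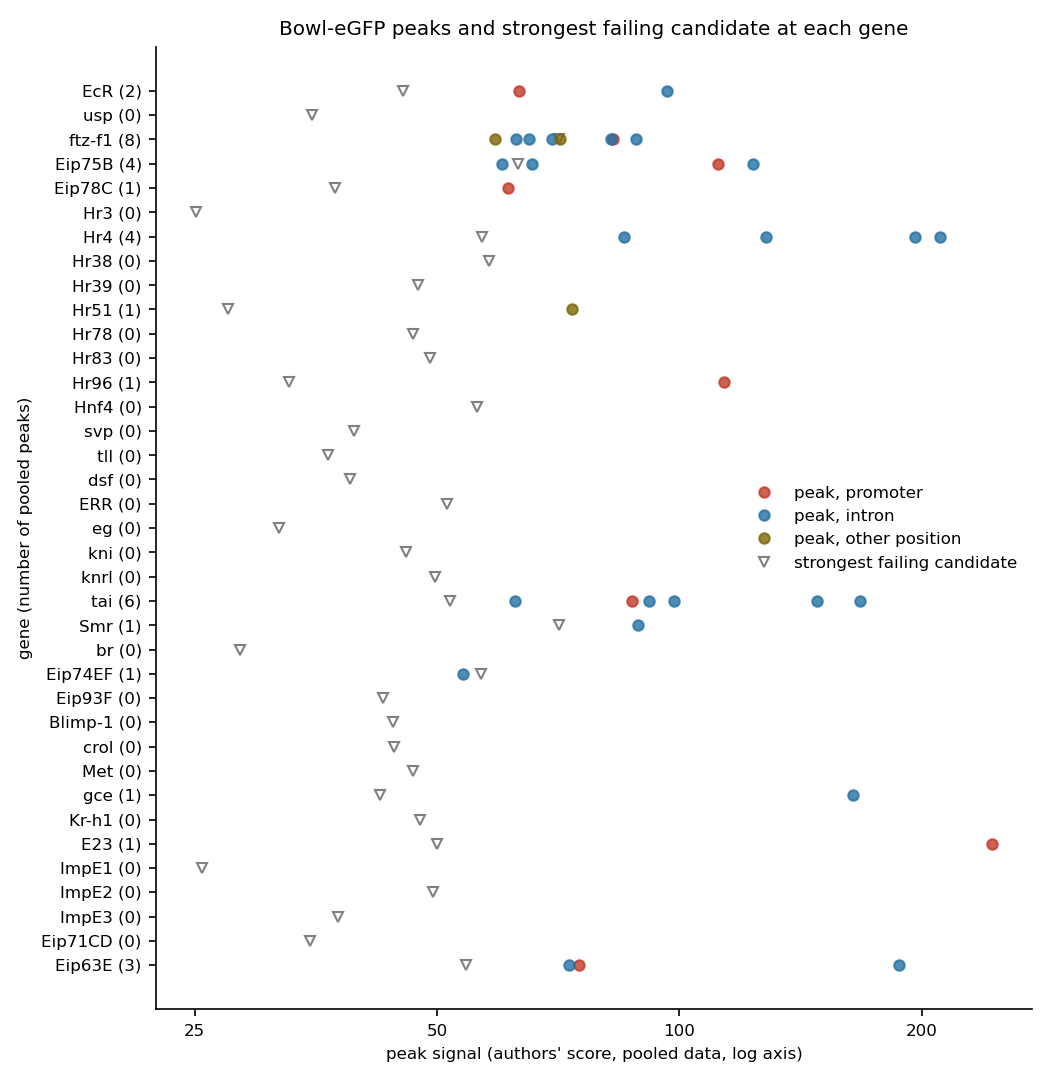
Signal of each pooled Bowl-eGFP peak (filled circles, coloured by position) and of the strongest failing candidate (open triangles) at the 37 hormone genes, on a log axis of the authors' score. The 34 peaks run from 53.8 to 245, 5 genes hold 25 of them, and 24 genes have failing candidates only. Hr3 is among the 24 because its peaks were assigned to CG46321, which shares their nearest TSS.

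The signal of a peak is the score the authors' peak caller gave it, with no stated scale. Peaks at hormone genes had a median signal of 86.3 (lowest 53.8, highest 245), and peaks of all other genes had a median of 82.6 (quartiles 66.6 and 120). The 1146 failing candidates at hormone genes had a median of 20.1 and a highest value of 71.0. The second score is the −log10 of the global IDR, where the limit of 2 stands for an IDR of 0.01. Since the IDR score chose the peaks and moves with signal, the gap in signal between peaks and failing candidates is a description and was not tested.

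Peaks were concentrated at a few genes. There were 8 at ftz-f1, 6 at tai, 4 each at Hr4 and Eip75B, 3 at Eip63E and 2 at EcR, and E23, gce, Hr96, Smr, Hr51, Eip78C and Eip74EF had 1 each. Among hormone genes with a peak, 46.2% (6 of 13) had 2 or more, against 21.9% of all genes with a peak. Only 39 genes in the genome had 4 or more pooled peaks, and 4 of them were hormone genes.

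Gene length and the number of candidates moved with these counts. The median span of the hormone genes was 21112 bp, against 2267 bp for all genes with a candidate, and their median number of candidates was 18, against 6. Per candidate, 2.88% of the 1180 regions at hormone genes became peaks, against 1.66% of all 132019 candidates. Among genes with 30 or more candidates, 7 of 14 hormone genes had a peak, against 37.9% of other genes. With 10 to 29 candidates the counts were 4 of 12 hormone genes against 18.5% of other genes, and with 1 to 9 candidates 2 of 11 against 8.22%. These strata are of candidate number and not of gene length, and the part of gene length in the difference was not tested.

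EcR, which encodes the ecdysone receptor itself, had its stronger peak in an intron, 5866 bp downstream of the TSS of the EcR-RD and EcR-RE transcripts (2R, 6151108 to 6151417). Its pooled signal was 96.7, and the overlapping candidates scored 47.2 in replicate 1 and 40.8 in replicate 2. The weaker peak was at the third of 3 promoters, 33 bp upstream of a TSS of EcR-RB, EcR-RC and EcR-RG, with a signal of 63.2. It passed the IDR limit narrowly, at a −log10 IDR of 2.0016, and had a candidate scoring 44.1 in replicate 1 and none in replicate 2. Neither EcR peak was in the own thresholded list of either replicate. usp, which encodes the partner of EcR, had 4 failing candidates, the best scoring 35.0 in its coding sequence.

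ftz-f1, which encodes an orphan receptor first known as a cofactor of Fushi tarazu, had 8 pooled peaks along its 50703 bp. The 4 strongest scored 88.4, 82.8, 82.2 and 71.1 and lay in an intron, at a promoter, in another intron and in coding sequence. The intron peak of 88.4 (3L, 18769447 to 18769756) scored 62.0 in replicate 1 and 26.5 in replicate 2. The promoter peak of 82.8 was 173 bp upstream of the TSS of ftz-f1-RC and ftz-f1-RD and scored 49.1 in replicate 1 and 28.9 in replicate 2. The intron peak of 82.2 lay 16565 bp inside the gene (3L, 18784589 to 18784898) and scored 51.1 in replicate 1 and 31.4 in replicate 2. The coding peak of 71.1 (3L, 18763446 to 18763755) scored 33.6 in replicate 1 and 38.4 in replicate 2. The other 4 peaks scored 59.1 to 69.5, so ftz-f1 carried many peaks of modest height rather than a dominant one. In the annotation, 3 of the 8 summits also lie in the long non-coding RNA gene CR45939 on the same strand.

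Eip75B, the gene of a haem-binding receptor that is itself an early ecdysone target, had 4 peaks along 113744 bp. The strongest, with a signal of 124, lay in an intron 6198 bp downstream of the TSS of Eip75B-RG (3L, 18019679 to 18019988) and scored 61.4 in replicate 1 and 73.5 in replicate 2. The next, with a signal of 112, was 36 bp downstream of the TSS of Eip75B-RC (3L, 17999630 to 17999939) and scored 62.3 in replicate 1 and 46.4 in replicate 2. Both replicates had called both of these peaks in their own lists. The other peaks scored 65.6 and 60.3, lay in introns and were in neither replicate's own list. At the promoter of Eip75B-RA a region in replicate 1's own list, 121 bp from the TSS with a signal of 49.3, had no counterpart in the pooled list.

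Hr4, a receptor gene that represses early ecdysone targets during metamorphosis, had 4 peaks, all in introns. The 2 strongest were narrow, 113 and 137 bp wide, where the other 32 peaks at hormone genes were 310 bp wide. The first scored 211, lay 5817 bp inside the gene (X, 1947682 to 1947794) and scored 135 in replicate 1 and 79.2 in replicate 2. The next scored 196, lay 21985 bp inside the gene (X, 1963871 to 1964007) and scored 96.8 in replicate 1 and 100 in replicate 2. Both were called in both replicates' own lists. The other peaks scored 128 and 85.3, with 97.3 and 54.2 in replicate 1 and 34.1 and 31.6 in replicate 2, and replicate 1 alone had called them.

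The remaining receptor genes with a peak had a single peak each. At Hr96, whose product acts in lipid and xenobiotic responses, the peak scored 114 (75.5 in replicate 1 and 36.7 in replicate 2) and lay 93 bp upstream of the TSS. The gene EMC6 starts 125 bp away on the other side of that summit, so the region is shared between a divergent pair of promoters. At Hr51, a receptor gene of neurons, the peak scored 73.5 (42.5 in replicate 1 and 30.4 in replicate 2) and lay 628 bp upstream of the TSS. At Eip78C, an ecdysone-induced receptor gene, a peak of 61.3 (38.2 in replicate 1 and 19.9 in replicate 2) lay 90 bp downstream of the TSS of Eip78C-RB.

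tai encodes a p160-type coactivator of the ecdysone receptor and had 6 peaks along 83434 bp. Its strongest peak, with a signal of 168, lay in an intron 38456 bp inside the gene (2L, 9205079 to 9205388) and scored 131 in replicate 1 but 22.3 in replicate 2. The next scored 148, lay in an intron 1020 bp upstream of the second TSS (2L, 9175183 to 9175492), and had a candidate scoring 150 in replicate 1 and no candidate in replicate 2. Peaks of 98.6 (94.8 in replicate 1, 16.6 in replicate 2) and 91.8 (55.2 in replicate 1, 37.7 in replicate 2) followed, both in introns. All 6 tai peaks were in replicate 1's own list, none was in replicate 2's, and 1 of 6 was overlapped by the authors' conservative list, which compares the replicates. For hormone genes other than tai, 17 of 28 peaks were in replicate 1's own list, 7 in replicate 2's and 20 were overlapped by the conservative list. The difference between tai and the other genes was not tested.

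Smr, which encodes the corepressor SMRTER, had 1 pooled peak with a signal of 88.9 in an intron, 7524 bp inside the gene, scoring 66.3 in replicate 1 and 24.8 in replicate 2. A neighbouring intron region of Smr scored 71.0 and stopped just short of the limit, at a −log10 IDR of 1.89, but was in the conservative list.

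Among the response factors, a pooled peak was assigned only to Eip74EF, an ETS-domain gene, with the lowest signal of the 34, 53.8 in an intron (38.4 in replicate 1 and 20.8 in replicate 2). Its strongest failing candidate scored higher, 56.7, at a promoter 214 bp from a TSS, with a −log10 IDR of 1.78. For the juvenile hormone genes, gce, a receptor gene, had a strong peak of 164 in an intron (X, 15298311 to 15298620), 543 bp upstream of the TSS of gce-RC and gce-RG, scoring 107 in replicate 1 and 56.2 in replicate 2. Met, which encodes the related receptor, had 5 failing candidates, the best scoring 46.7. Kr-h1 had 13 failing candidates, the best scoring 47.7.

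The Hr3 peak of 372, whose nearest TSS Hr3 shares with CG46321, was assigned to CG46321 and is not among the 34. Of the 34 assigned peaks the strongest was at E23, which encodes an ABC transporter that lowers the ecdysone response. It had a signal of 245, rank 136 of the 2198 pooled peaks, and lay 247 bp upstream of the only E23 promoter (2L, 3354921 to 3355230), scoring 183 in replicate 1 and 61.5 in replicate 2. Eip63E, which encodes a cyclin-dependent kinase, had 3 peaks. The strongest scored 187, lay in an intron 2355 bp inside the gene (3L, 3517951 to 3518260), and scored 110 in replicate 1 and 76.4 in replicate 2. A promoter peak of 75.1 (48.3 in replicate 1, 28.7 in replicate 2) lay 70 bp downstream of the second promoter, and an intron peak of 72.9 (35.6 in replicate 1, 29.4 in replicate 2) lay 51539 bp inside the gene. The E23 peak and the strongest Eip63E peak were called in both replicates.

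**Figure D2:**
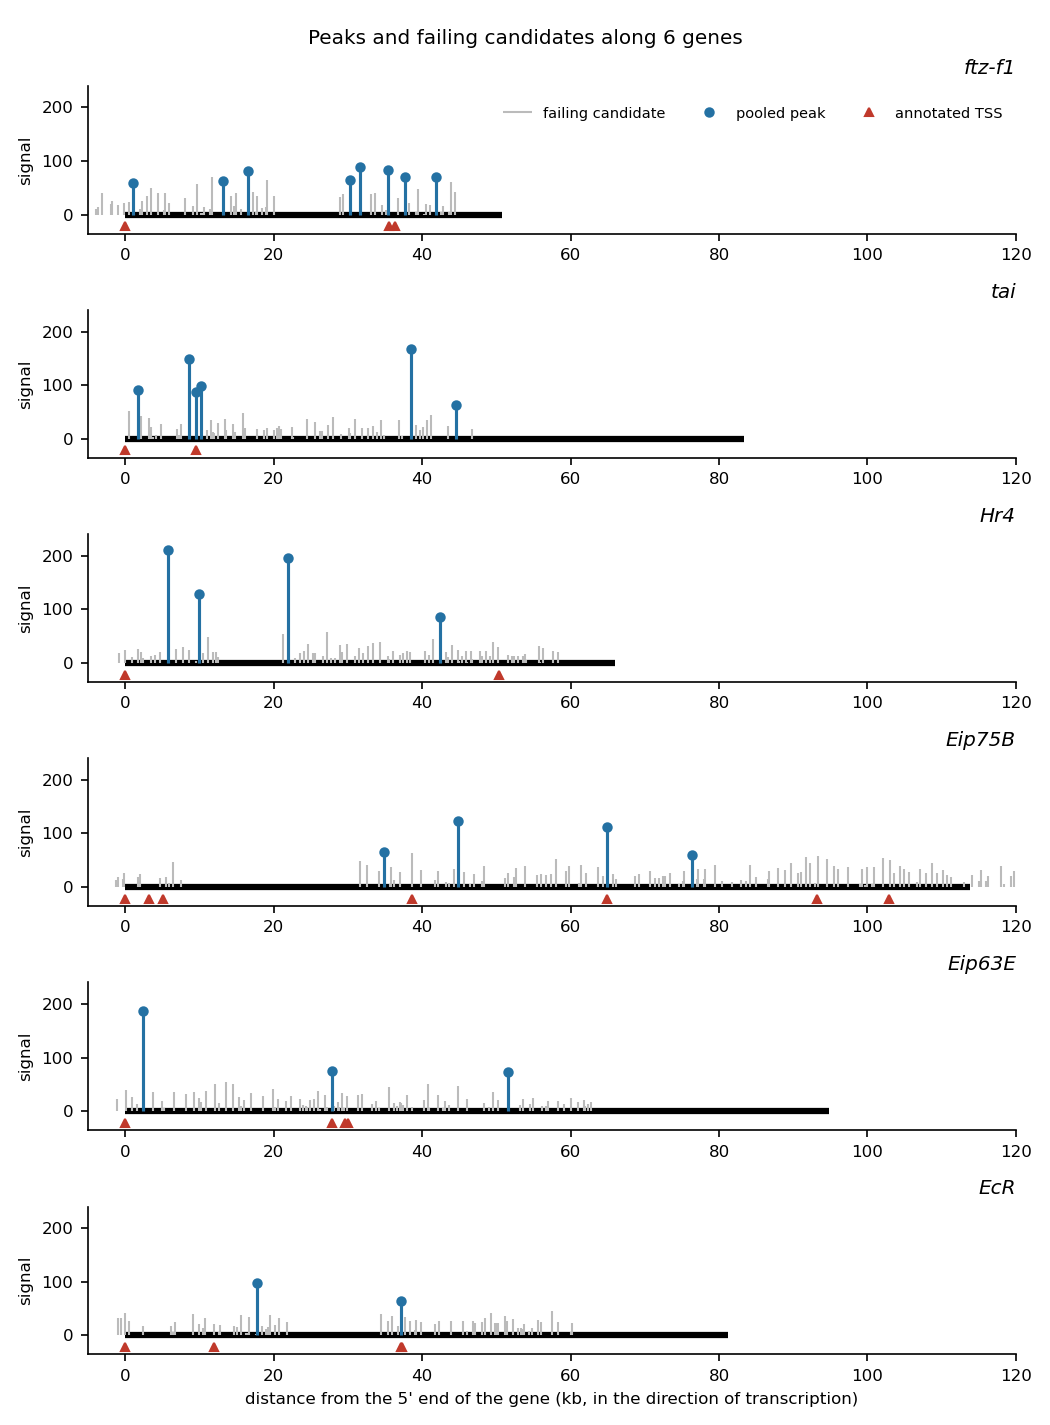
Pooled peaks (blue stems with circles), failing candidates (grey stems) and annotated TSSs (red triangles) along the 6 hormone genes with 2 or more peaks, drawn as distance in kb from the 5′ end of each gene (black bar), with the authors' signal on the vertical axis. Only regions assigned by nearest TSS are drawn, so the peak of 115 at the first tai promoter is absent. Intron peaks are drawn at each of ftz-f1, tai, Hr4, Eip75B, Eip63E and EcR, and a promoter peak at each except Hr4. The Hr4 peaks of 211 and 196 stand far from both of its TSSs.

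No pooled peak was assigned to 24 hormone genes, and all 24 had failing candidates. br, the Broad-Complex gene, had the most of these 24, 106, but its best scored only 28.5, while Hr38, an NR4A-type receptor gene, had 34 with a best of 58.1. The Hr38 candidate missed the limit at a −log10 IDR of 1.98. Best candidates scored 47.4 at Hr39, 46.6 at Hr78, 49.0 at Hr83, 56.1 at Hnf4, 51.5 at ERR, 39.5 at svp, 36.6 at tll, 39.0 at dsf and 25.1 at Hr3. At Hr3 this leaves out candidates and peaks nearest to the TSS it shares with CG46321, which were assigned to CG46321. The knirps-group genes reached 31.8 at eg, 45.8 at the gap gene kni and 49.7 at knrl. Of the response factors, Eip93F reached 42.9, Blimp-1 44.1 and crol 44.2. The ecdysone-inducible genes reached 25.5 at ImpE1, 49.4 at ImpE2, 37.7 at ImpE3 and 34.7 at Eip71CD, a methionine sulfoxide reductase gene. Signal alone did not separate the lists, since 16 failing candidates at hormone genes scored above the weakest peak. Closest to the limit on the inside were the EcR promoter peak and the ftz-f1 peak of 62.6 at 2.01. Among the strongest failing candidates of each gene, those at Hr38 (1.98) and Hr4 (1.91) came closest on the outside. Weaker failing candidates were not ranked by IDR.

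Counting by nearest TSS leaves out summits that lie within a hormone gene, or up to 1 kb upstream, but were assigned to another gene. That gene has the nearest TSS or, at Hr3, shares it. There were 10 such peaks, and with them the hormone genes held 44 peaks at 17 genes. Hr3, which links the early response to ftz-f1 and had no assigned peak, held the strongest of the 44. This peak had a signal of 372, rank 56, in an intron 17298 bp inside the gene, and was called in both replicates. Its nearest TSS, 7907 bp away, is that of Hr3-RA, Hr3-RF and Hr3-RH and is shared by CG46321, which overlaps Hr3 on the same strand. The tie went to CG46321 by name only. A weaker Hr3 intron peak scored 78.4 and lay 2897 bp from the same shared TSS. The tai gene gained peaks of 116, 115 and 63.0, and br gained a peak of 105 in an intron, nearest to a TSS of Mur2B, which overlaps br on the opposite strand. Eip74EF gained a peak of 87.9, Hr39, a receptor gene related to ftz-f1, 72.3, ftz-f1 63.2 and crol 55.9.

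Where the summits lay was then compared with failing candidates at the hormone genes and with the peaks of other genes. Promoters, defined as the 500 bp on either side of a TSS, held 8 of 34 peaks at hormone genes (23.5%, 95% Wilson interval 12.4 to 40.0). They held 79 of 1146 failing candidates at all 37 hormone genes, with or without a peak (6.89%, 5.57 to 8.51). The log2 ratio was 1.77, and the share was higher in peaks by a two-sided Fisher's exact test (adjusted p = 0.0073 over 5 tests). This call was lost with the strongest peak per gene (1.74, Fisher's exact adjusted p = 0.15), at a −log10 IDR of at least 3 (1.64, adjusted p = 0.18) and in replicate 2's own list (1.96, adjusted p = 0.27). The call held against failing candidates at hormone genes with a peak only, 37 of 625 in promoters (5.92%, log2 ratio 1.99, Fisher's exact adjusted p = 0.0059). Peaks of all other genes were in promoters more often, 1069 of 2164 (49.4%, 47.3 to 51.5), a log2 ratio of −1.07 for hormone genes against them (adjusted p = 0.0073, Fisher's exact test). The call against other genes was lost when these were limited to genes that span at least 20 kb, of whose peaks 35.2% (196 of 557) were in promoters (log2 ratio −0.58, Fisher's exact adjusted p = 0.42), and without ftz-f1 (−0.88, adjusted p = 0.072). Peaks cluster within genes and are not independent, so these p-values describe the lists and say nothing of variation between embryo samples.

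Introns held 23 of the 34 peaks at hormone genes (67.6%), against 32.9% of the peaks of other genes and 65.9% of failing candidates at the hormone genes. The summits lay inside the gene they were assigned to in 31 of 34 cases. Their median distance to the nearest TSS was 3792 bp, against 522 bp for the peaks of other genes and 6143 bp for failing candidates at the hormone genes. More than 5 kb from the nearest TSS lay 16 of 34 peaks (47.1%), among them the strongest tai, Hr4 and Eip75B peaks, against 16.4% of the peaks of other genes. The median signal was 85.1 for the promoter peaks and 88.9 for the intron peaks. Of the 8 promoter summits 5 were upstream of the TSS (62.5%), against 48 of 79 promoter summits among failing candidates (60.8%, adjusted p = 1, Fisher's exact test), and with 8 summits the interval of 30.6 to 86.3% leaves a difference in either direction undetectable.

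**Figure D3:**
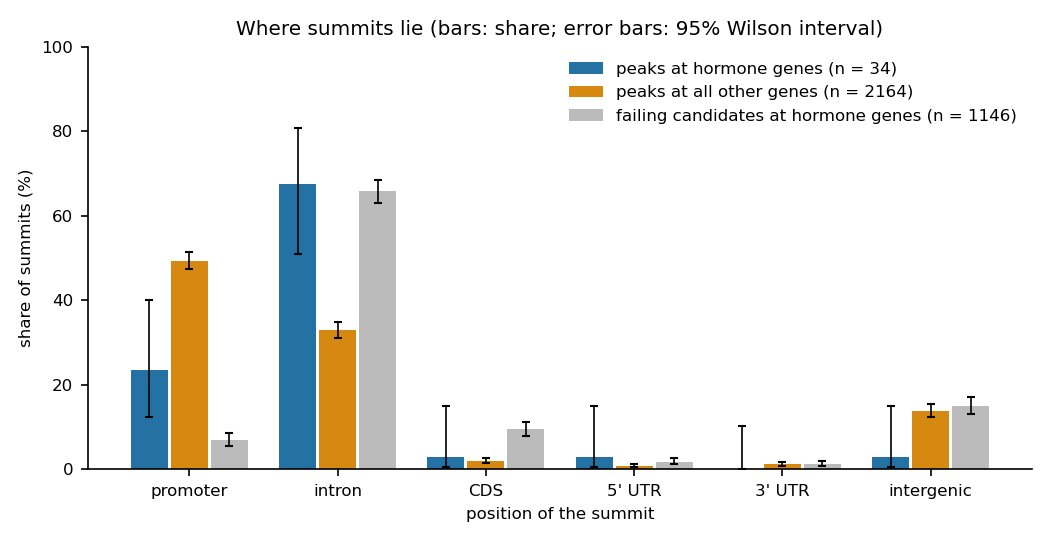
Share of summits in each kind of position, in percent, for the 34 peaks at hormone genes (blue), the 2164 peaks of other genes (orange) and the 1146 failing candidates at hormone genes (grey), with 95% Wilson intervals. Promoters hold 23.5%, 49.4% and 6.89%, and introns 67.6%, 32.9% and 65.9%.

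Many of these genes have alternative promoters. With TSSs within 500 bp merged, the 37 genes had 77 promoters and 21 genes had more than 1. A pooled summit lay within 500 bp of 9 promoters at 8 genes, and at genes with several promoters the bound one was not the first, except at tai. At EcR it was the third of 3 promoters, at ftz-f1 the second of 3 (ftz-f1-RC and ftz-f1-RD), at Eip75B the fifth of 7 (Eip75B-RC), at Eip78C the second of 2 (Eip78C-RB) and at Eip63E the second of 3. Most promoters of these genes are not the first, and the order of bound promoters was not tested. The EcR and Eip78C promoter peaks were in neither replicate's own list nor the conservative list. Only tai had both of its promoters bound, and both of these peaks were called by replicate 1 and not by replicate 2, while no gene had more than 1 bound promoter in the conservative list. The summit at the first lay 168 bp from the tai TSS and 96 bp from that of the divergent gene CG9586, with a signal of 115, and the summit at the second, used by tai-RC, tai-RE and tai-RF, lay 70 bp upstream with a signal of 87.4. Hr96 and E23 have 1 promoter each, and each was bound. Neither promoter of Hr4 had a summit within 500 bp, and none of the 3 gce promoters did, its peak lying 700 bp from the first and 543 bp from the second. Among the 6 br promoters the nearest pooled summit was 3415 bp away.

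Replicate lists differed in size, 1662 peaks in replicate 1 and 772 in replicate 2. All 34 peaks at hormone genes overlapped a candidate of replicate 1 and 32 a candidate of replicate 2. A thresholded peak of replicate 1 overlapped 23 of 34 (67.6%), against 65.2% of the peaks of other genes (log2 ratio 0.05, Fisher's exact adjusted p = 1). A thresholded peak of replicate 2 overlapped 7 of 34 (20.6%), against 34.8% (log2 ratio −0.76, Fisher's exact adjusted p = 0.17), with an interval of 10.3 to 36.8% for the hormone genes. The 7 peaks called in both were at E23, gce and Eip63E, and at Hr4 and Eip75B, which had 2 each. Replicate 1 alone called 16, replicate 2 alone called 0, and 11 (32.4%) were in neither list, against 29.3% of the peaks of other genes. Of these 11, 5 were in the conservative list: the EcR, Eip63E and Hr51 peaks of 96.7, 72.9 and 73.5, and the ftz-f1 peaks of 71.1 and 59.1. The lower share for replicate 2 had a log2 ratio of −0.37 without ftz-f1 and −0.04 with the strongest peak per gene, and no call was made in any of them.

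**Figure D4:**
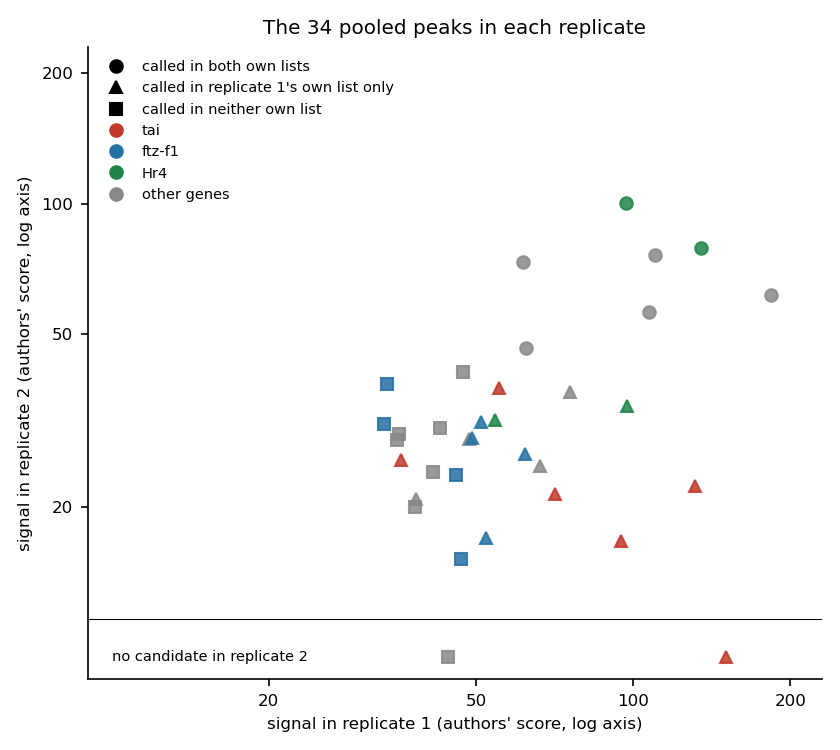
Signal of the 34 peaks at hormone genes in replicate 1 (horizontal) and replicate 2 (vertical), each on a log axis of the authors' score from that replicate's own ranked list, so the axes need not share a scale. Circles are peaks called in both own lists (7), triangles in replicate 1's only (16) and squares in neither (11); peaks with no replicate 2 candidate, at tai and EcR, are drawn below the line.

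Short words were sought on both strands within 50 bp of the 34 summits. Each is a site of known binding proteins except ACAGTGG, for which no protein is named here. AGGTCA, the core site of many nuclear receptors, was at 2 of 34 summits (5.88%), against 2.26% of the peaks of other genes and 2.97% of failing candidates at hormone genes. Both were intron peaks of ftz-f1. AAGGTCA, the longer form bound by single receptors such as the ftz-f1 product, overlaps AGGTCA and was at 0 of 34 summits, which allows a share of up to 8.82% at a floor of 3 counts (upper Wilson bound 10.2%). CAGTAGC, a core site of odd-skipped family proteins, was at 1 of 34 (2.94%), against 1.16% of the peaks of other genes and 0.785% of failing candidates. GAGAGAG, a word of the GAGA factor Trl, was at 5 of 34 (14.7%), against 1.94% and 3.32%, and 3 of the 5 were at ftz-f1, with tai and Eip74EF holding the others. Within 100 bp GAGAGAG was at 17.6%, against 6.24% and 6.54%, and without ftz-f1 it was at 7.69% within 50 bp. ACAGTGG was at 1 of 34 within 50 bp (2.94%, against 2.87% and 1.05%) and at 4 of 34 within 100 bp (11.8%, against 10.3% and 2.44%).

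A choice of the stretches that hold these words is printed with the word in capitals, each 25 bases in the direction of the word, with GAGAGAG shown at 3 of its 5 peaks and left out at the ftz-f1 peaks of 62.6 and 59.1.
ftz-f1, intron, AGGTCA, chr3L:18759361-18759385, plus strand: gtggaatctAGGTCAtgagcgcaag
ftz-f1, intron, AGGTCA, chr3L:18788099-18788123, minus strand: ttttgaaactAGGTCAatgcaattt
ftz-f1, intron, CAGTAGC, chr3L:18784718-18784742, minus strand: ttcacatttCAGTAGCaaaaaaaaa
ftz-f1, promoter, GAGAGAG, chr3L:18765939-18765963, minus strand: agagagagtGAGAGAGcgaaaaaga
tai, intron, GAGAGAG, chr2L:9176888-9176912, minus strand: aagcgacacGAGAGAGccaaaaaga
Eip74EF, intron, GAGAGAG, chr3L:17590894-17590918, minus strand: agttcgcgcGAGAGAGcgagagcgc
The CAGTAGC word was centred 14 bp from the summit of the ftz-f1 intron peak of 82.2, and the Eip74EF word 5 bp from its summit. A match is a description of the letters and does not show that a protein binds there.

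Other genes of the same pathways were counted in the same way from 52 listed names. Of 16 genes for ecdysteroid synthesis, transport and loss 1 had a peak, the importer gene EcI, with 63.9 at its promoter. Of 8 juvenile hormone synthesis and loss genes 1 had a peak, the epoxide hydrolase gene Jheh1, with 60.6. Of 12 genes for cofactors of the ecdysone receptor 3 had peaks: nej, the CBP acetyltransferase gene, with 173, Hsp83, a chaperone gene, with 152 and 142, and bon with 68.7. Of 16 other hormone targets 3 had peaks, with 120 at crq, 81.5 at the cell death gene hid and 75.3 at Ldh. Of the 8 juvenile hormone genes 6 had a candidate. Over genes with a candidate the shares were 6.25%, 16.7%, 25% and 18.8%, beside 12.8% of all such genes, and were not tested.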

How the data were processed

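Bowl-eGFP ChIP-seq was deposited as dm6 peak lists, per the labels: for each of 2 replicates and for the pooled data, a ranked and a thresholded list, and a conservative list. The signal is a score given by the authors' peak caller, and the second deposited value is the −log10 global IDR. Which aligner and caller made them was not given in the sources used here. Summits were assigned to the nearest TSS of Ensembl 115 protein-coding genes (BDGP6.54), with positions ranked promoter, CDS, 5′ UTR, 3′ UTR, intron, intergenic. A TSS shared between genes went to the first gene by name. Failing candidates had a −log10 IDR under 2. Replicate values are the strongest candidate overlapping by at least 1 bp in that replicate's own ranked list. Shares were tested by Fisher's exact test, two-sided, adjusted over 5 tests by the Benjamini-Hochberg method, and 95% Wilson intervals cover counting error only. Python 3.11.15, pandas 2.3.3 and scipy 1.17.1 were used, and gene assignment was tested on simulated data. Names were matched by symbol, or by synonym for 1 hormone gene and 3 related genes. Every hormone gene is named, with positions for up to 4 peaks at genes with 3 or more and the strongest elsewhere, and some further peaks chosen after their values were seen. The hormone genes and other lists were chosen with earlier results of these data known. Alternatives changed the list, the IDR limit, the signal, the gene assignment, the promoter, overlap and word windows, and the genes compared.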

Additional observations from a re-analysis of the deposited data

How the results depend on the processing

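Of 143 values recomputed under alternatives, 103 kept their direction and call, stayed within 1.5 times the main count or, for word shares, stayed within the 95% interval of the main share. The 34 peaks at 13 genes became 14 at 8 genes at a −log10 IDR of at least 3, 19 peaks at or above the median signal and 18 peaks with a TSS within 5 kb. Over the replicates' own lists the counts ran from 7 to 28 peaks and from 5 to 10 genes. Genes with more than 1 bound promoter, 1 in the main count, numbered 0 in the conservative list and at an IDR score of 3, 3 with promoters of 1000 bp, and 0 to 2 over the replicates' own lists. The promoter share against failing candidates had a log2 ratio of 1.64 at an IDR score of 3 (adjusted p = 0.18, Fisher's exact test), 1.74 with the strongest peak per gene (adjusted p = 0.15) and 1.86 to 1.96 over the replicates' lists, where the call held in replicate 1's list (adjusted p = 0.0043) and was lost in replicate 2's (adjusted p = 0.27). Against the peaks of other genes it was −0.94 in the conservative list, −1.33 at an IDR score of 3, −0.996 at or above the median signal, −0.41 within 5 kb, −0.80 with promoters of 200 bp, −0.88 without ftz-f1, −1.25 with the strongest peak per gene, −0.58 against genes of at least 20 kb and −0.87 to −0.89 over the replicates' lists, none of these with an adjusted p under 0.05 except in replicate 1's list. Only differences without a call changed sign: the log2 ratio of overlap with replicate 1 was −0.048 at an IDR score of 3, and that of the upstream share was −0.094 with promoters of 200 bp and −0.083 without ftz-f1. AGGTCA and CAGTAGC fell to 0 of the peaks at an IDR score of 3, at or above the median signal, within 5 kb, without ftz-f1 and with the strongest peak per gene, and AGGTCA also in the conservative list; over the replicates' lists they ran from 0 to 3.57% and from 0 to 7.14%, ACAGTGG from 7.14 to 14.3%, and GAGAGAG from 0 to 14.3%. The log2 ratio of the upstream share ran from 0.087 to 0.17 over those lists. Leaving out ftz-f1, keeping the strongest peak per gene and restricting the genes compared were chosen after seeing the data. The cause of these changes was not tested. No paired analysis was possible because there was 1 group. Depth is unknown, so differences it would hide cannot be bounded, and the control was not analysed here.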

Other observations

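A pattern noticed in the Eip63E window, and counted afterwards, was a pair of ACAGTGG words that flank the summit and face inward within 100 bp. It was present at 2 of 34 peaks at hormone genes (5.88%), against 23 of 2164 peaks of other genes (1.06%). No failing candidate at the hormone genes held it (0 of 1146, which allows a share of up to 0.262%), and 21 of all 128710 failing candidates on the main chromosomes did (0.016%). The 2 peaks were the Eip63E intron peak of 187, with words centred 43 bp before and 41 bp after the summit, and the tai intron peak of 91.8, with words 72 bp before and 81 bp after it. The pair was chosen after values were seen, so it was not tested. The Eip63E peak that first showed the pair is among the 2, so the count added only the tai peak.
tai, chr2L:9168374-9168398, plus strand: caataaagcACAGTGGgatcaaata
tai, chr2L:9168527-9168551, minus strand: agaatgcgcACAGTGGgcctaaaaa
Capitals mark the word in each 25-base stretch of dm6. Further single ACAGTGG words lay within 100 bp of the Hr4 summit of 196 and the ftz-f1 summit of 69.5.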
